A study of Sus scrofa with 42 samples.

Results

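The comparison set the endpoints of the first cleavages side by side in embryos of the pig that came from in vitro fertilization (IVF). It used 6 of the 42 single cells that were sequenced. The IVF 1-cell group held 3 whole zygotes from 3 embryos, taken 19 h after the sperm incubation. The IVF 8-cell group held 3 blastomeres, all taken from 1 embryo at 72 h. The question was which transcripts that the zygote carried were still present in the 8-cell embryo, which had been lost, and which were new. All oocytes came from ovaries of gilts and were matured in vitro, and no strain, sire or genotype is given in the sources used here. The zona pellucida was removed and blastomeres were separated with trypsin. As a reference that shared no sample with it, the same net change was taken from parthenogenetically activated (PA) embryos, which carry no sperm genome, with 3 cells of 3 1-cell embryos and 3 cells of 1 8-cell embryo.

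A fertilized mammalian egg starts with RNA that the oocyte made and stored, because its own genome is at first nearly silent. Stored transcripts are held by RNA-binding proteins, many with short poly(A) tails, and are later deadenylated and degraded. Transcription from the embryonic genome then takes over. In pigs the main wave of this zygotic genome activation is placed around the 4-cell to 8-cell stages. Ribosomal protein genes, translation factors and RNA-processing genes are among those known to be switched on early in mammalian embryos, while genes of oocyte growth and meiosis are known to be cleared.

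Expression was deposited as fragments per kilobase of exon scaled to sequencing depth (FPKM), a level relative to the other transcripts of the same cell. A transcript whose amount stays constant therefore gains FPKM when the rest of the RNA shrinks, and an amount per cell could not be derived. The reads assigned to genes, recovered from the step size of the FPKM values, were 10398585, 15048997 and 13697849 in the 1-cell embryos and 5637689, 14113820 and 11937894 in the 8-cell blastomeres. Genes above 0 numbered 7803 to 9453 per zygote and 4839 to 6510 per blastomere. Mitochondrial mRNA took 3.89% to 14.5% of the summed FPKM in zygotes and 23.9% to 46.8% in blastomeres. On the log2(FPKM + 1) scale, Pearson's r across the 8116 tested genes was 0.831 to 0.908 between zygotes, 0.455 to 0.505 between the sister blastomeres and 0.221 to 0.256 between the stages, as a description across genes of one table. Of the genes fixed as markers of cumulus or granulosa cells, which surround the oocyte, 8 were in the table and their summed FPKM was 11.8 to 18.8 in zygotes and 0.253 to 4.97 in blastomeres, with LHCGR, COL3A1 and TNFAIP6 too low to be tested. The only sperm marker in the table, AKAP4, was at 0 in all 6 cells.

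Between the zygote and the 8-cell embryo, 489 genes were called higher and 668 lower of the 8116 tested, 6.03% and 8.23% of them. A call needed a Benjamini-Hochberg adjusted p below 0.05 in limma and a change of at least 2-fold on the log2(FPKM + 1) scale, with 1 value per embryo. Since the 8-cell group is 1 embryo, its spread was borrowed from the other groups, and the p-values measure only the spread between the embryos sequenced. The median tested gene stood at a log2 fold change of -0.77, and 69.3% of tested genes were below 0, so that a gene at 0 was already above the typical gene. All 668 genes called lower were below every zygote in every blastomere, as were 3683 (45.4%) of all tested genes. Of the 489 genes called higher, 231 were above every zygote in every blastomere, as were 430 (5.30%) of all tested genes. Without the second or the third zygote, 406 and 402 genes were called lower. The split of the calls depended on the scaling. When cells were scaled by the median ratio over 1064 genes detected in all 42 cells, which put the median tested gene at 0, 1492 genes were called higher and 121 lower. All 121 were among the 668, and of the 445 genes called higher that could be fitted under that scaling, 438 were called higher again.

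**Figure D1:**
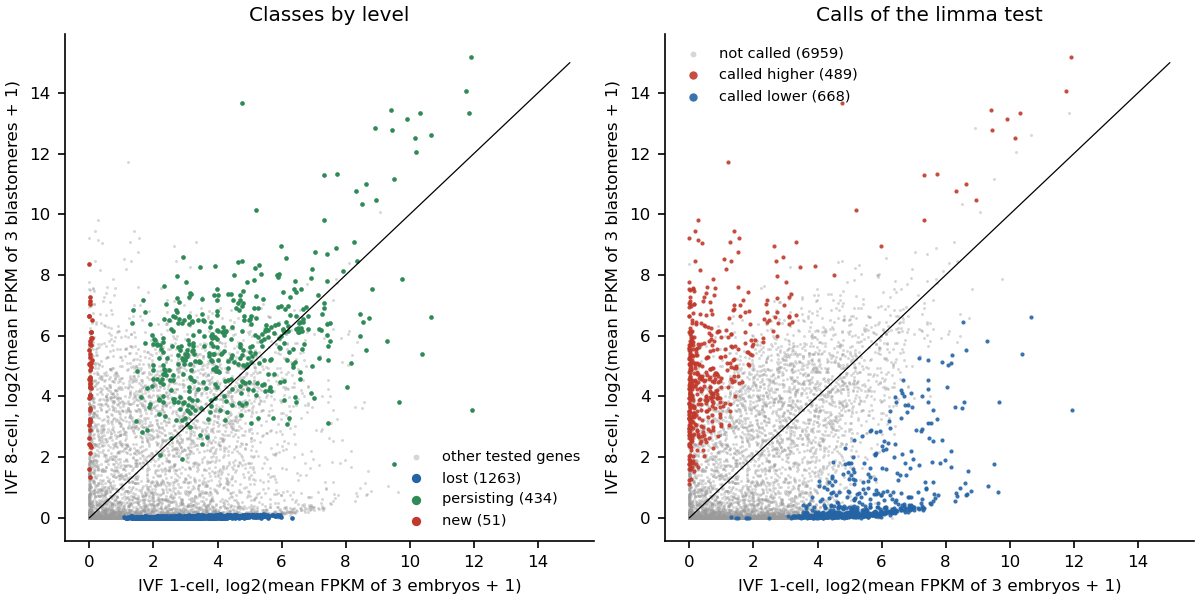
Each point is 1 of 8116 tested genes, with its mean level in 3 IVF zygotes on the x axis and in 3 blastomeres of 1 IVF 8-cell embryo on the y axis, both as log2(mean FPKM + 1), and the line marks equal levels. The left panel colours 1263 lost, 434 persisting and 51 new genes, and the right panel the 489 genes called higher and the 668 called lower. Lost genes lie along the floor of the 8-cell axis and new genes along the floor of the 1-cell axis.

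Each gene was also placed by its level alone, with no test. A gene counted as lost at 1 FPKM or more in all 3 zygotes and under 0.1 FPKM in all 3 blastomeres, as persisting at 1 FPKM or more in all 6 cells, and as new at under 0.1 FPKM in all 3 zygotes and 1 FPKM or more in all 3 blastomeres. Of the 3931 genes present in all 3 zygotes, 1263 (32.1%) were lost, 434 persisted, and 2234 (56.8%) were in neither class, with a blastomere at 0.1 FPKM or more and one under 1 FPKM. Of the 650 genes present in all 3 blastomeres, 434 (66.8%) persisted, 51 (7.85%) were new and 165 (25.4%) were in neither class. A lost gene had a median of 795 reads in a zygote and 1 read in a blastomere. No read was found in any blastomere for 171 lost genes. A zygote was a whole embryo and a blastomere only a part of one. A transcript missed in the blastomeres therefore cannot be told apart from a lost one. Of the lost genes 242 were called lower and of the new genes 42 higher. Of the persisting genes 45 were called higher and 16 lower. All 668 genes called lower were among the 3931 genes present in all 3 zygotes. Lists with high zygotic levels can therefore hold more genes called lower, and genes of like zygotic level were not compared. Without the third blastomere 658 genes persisted, and without the first or the third 89 and 91 genes were new.

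The lost transcripts with the highest zygotic levels had diverse roles. PAICS, an enzyme of purine synthesis, was at 55.6, 72.8 and 56.5 FPKM in the zygotes and 0, 0.0293 and 0.0328 FPKM in the blastomeres, a log2 fold change of -5.93 ± 1.84 (SE) with a limma adjusted p of 0.0368. MCMBP, a binding partner of the MCM replication helicase, was at 43.1, 68.8 and 72.02 FPKM and then at 0.0703, 0.0734 and 0.0598 FPKM, and fell by 5.83 on the log2 scale (adjusted p = 0.00729). In neither gene did the stages overlap, and the zygotic level was at least 43.1 FPKM in every embryo. NUF2, a subunit of the NDC80 kinetochore complex, had 96.97, 41.5 and 34.8 FPKM in zygotes and 0.0488, 0.0926 and 0.0207 FPKM in blastomeres (adjusted p = 0.0169). MAEL, which acts in piRNA silencing of transposons in germ cells, had 44.1, 81.1 and 39.8 FPKM and then 0, 0.0935 and 0.0262 FPKM (adjusted p = 0.0282). OTX2, a homeobox transcription factor, had 63.1, 65.3 and 27 FPKM and then 0.0646, 0.0899 and 0.0549 FPKM (adjusted p = 0.000201). NUF2 was highest in the first zygote and OTX2 lowest in the third. The endoplasmic reticulum chloride channel gene CLCC1, the receptor scaffold gene GRIP1, the UFM1 ligase gene UFL1, TDRP and the lysosomal mannosidase gene MANBA completed the 10 highest with a symbol, with zygotic means of 59.1 ± 22.2, 57.6 ± 13.7, 50.7 ± 15.7, 55.4 ± 27.3 and 48.1 ± 28.5 FPKM (SD, n = 3) and log2 fold changes of -5.78, -5.75, -5.55, -5.60 and -5.41, all called lower. PAICS, TDRP and MANBA overlap a gene on the other strand, and as no use of strand is stated, the reads of such partners cannot be told apart. The gene without a symbol ENSSSCG00000035440 had a higher zygotic mean, 79.96 ± 22.6 FPKM (SD, n = 3), and no read in any blastomere, but it overlaps UTP20 on its own strand and missed the threshold (adjusted p = 0.0524).

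The largest falls included a kinase gene of oocyte meiosis and a gene of maternal RNA decay. WEE2 encodes the oocyte kinase that holds CDK1 inhibited, and its level was 299, 452 and 451 FPKM in the zygotes and 0.495, 1.09 and 0.505 FPKM in the blastomeres. This was a fall by 7.86 ± 0.69 on the log2 scale (SE, adjusted p = 5.97e-07). BTG4, the adaptor that brings the CCR4-NOT deadenylase to maternal mRNA, went from 675, 762 and 754 to 1.6, 4.58 and 1.14 FPKM and fell by 7.73 ± 0.63 (adjusted p = 4.37e-07). ESCO2, the acetyltransferase that locks cohesin on sister chromatids, went from 288, 367 and 297 to 0.816, 0.917 and 0.539 FPKM (log2 fold change -7.49 ± 0.66, adjusted p = 5.97e-07). Over these 3 genes the highest blastomere was at 4.58 FPKM (BTG4) and the lowest zygote at 288 FPKM (ESCO2). BTG4 lies opposite C11orf88. ZC2HC1A had 169, 354 and 415 FPKM in zygotes and 0.333, 0.4 and 0.661 FPKM in blastomeres, and ORMDL1, a regulator of sphingolipid synthesis, had 243, 399 and 407 and then 0.55, 0.608 and 1.71 FPKM, with adjusted p of 2.79e-06 and 0.0132. ORMDL1 overlaps PMS1 on the other strand. The microRNA precursor row ssc-mir-9818 had 605, 331 and 391 FPKM and then 1.45, 1.1 and 0 FPKM (adjusted p = 0.0378). It lies opposite TECTA, and in a row of only 69 bases each read adds more FPKM than in a longer row. A pair of genes without a symbol fell further. ENSSSCG00000039108 (chr9:19526929-19527774, within the DLG2 locus of RefSeq) went from 1109, 653 and 640.2 to 1.23, 0.702 and 0.524 FPKM. ENSSSCG00000000296, which overlaps a RefSeq gene described as gametocyte-specific factor 1-like, went from 5958, 3033 and 2818 to 14.9, 10.9 and 6.52 FPKM. The latter was still at 6.52 FPKM in its lowest blastomere and so counted as persisting, although it fell by 8.30 on the log2 scale (adjusted p = 8.09e-07).

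Of 34 oocyte factors in the table, 28 were tested, 13 were called lower and none higher, against 8.23% and 6.03% of all tested genes. Their median log2 fold change was -4.22, which was 3.45 below the median gene, and stayed below 0 under median-ratio scaling (-2.33). OOSP2, a secreted oocyte protein, went from 165, 143 and 153 to 0, 0.582 and 0.186 FPKM. H1FOO, the oocyte linker histone, went from 114, 152 and 191 to 0.457, 0.243 and 0.233 FPKM. KPNA7, an importin alpha of oocytes, went from 83.96, 162 and 199 to 0.377, 0.518 and 0.301 FPKM. The adjusted p of these falls was 0.000788, 8.09e-07 and 4.74e-06. The secreted growth factor gene BMP15 fell from 77.01, 89.98 and 142 to 0.385, 0.555 and 0.131 FPKM (adjusted p = 5.59e-06), and the meiotic kinase gene MOS from 37.7, 18.7 and 23.4 to 0.179, 0.0452 and 0.0253 FPKM (adjusted p = 0.0343). GDF9, the partner of BMP15 in the follicle, was at 21.99, 30.1 and 42.4 FPKM in zygotes and at 22.03, 0.373 and 0.827 FPKM in blastomeres, where 1 sister held a zygotic level, and was not called (adjusted p = 0.281). ZP2 and ZP3, which encode zona pellucida proteins, were at 0.747, 4.88 and 13.5 and 1.64, 2.41 and 0.0828 FPKM in zygotes and were not called (adjusted p = 0.364 and 0.602). In the list 18 of the 28 (64.3%) had every blastomere below every zygote, against 45.4% of all tested genes. Of the 28, 8 were lost. Only genes present in all 3 zygotes could be lost, and 1263 (32.1%) of those 3931 genes were. Some of the 28, such as ZP2 and ZP3, were not present in all 3 zygotes. The list's median zygotic level was 25.1 FPKM, against 2.95 FPKM for all tested genes.

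**Figure D2:**
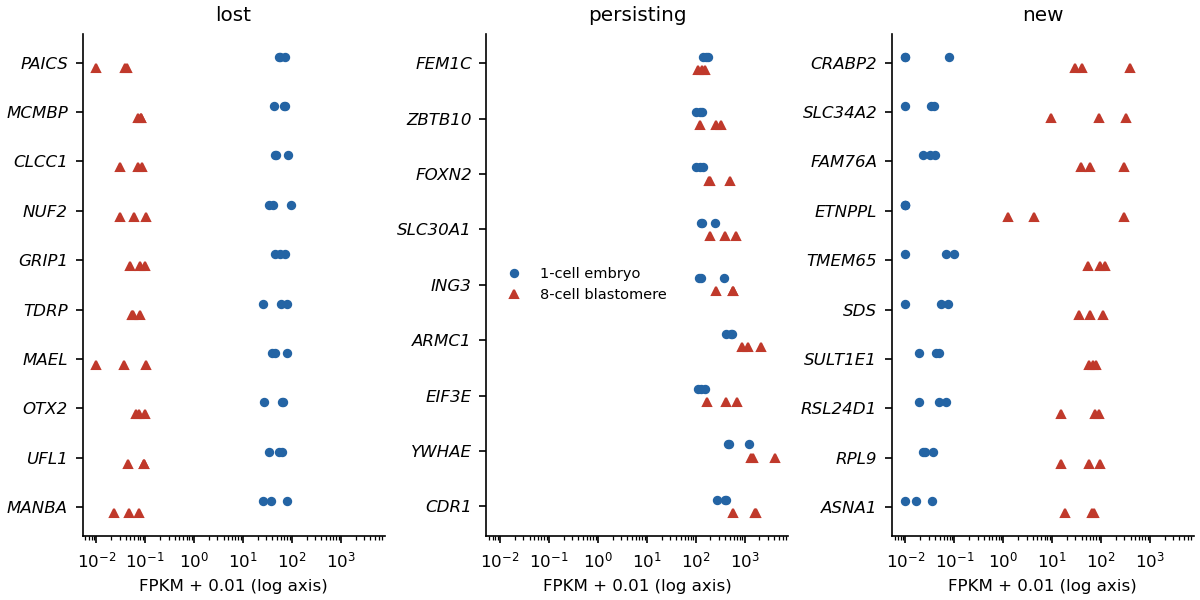
FPKM of each cell for the 10 lost and 10 new genes with the highest levels and 9 persisting genes at 100 FPKM or more with small changes, with 3 zygotes (circles) and 3 blastomeres of 1 8-cell embryo (triangles) on a log axis after adding 0.01. The stages lie more than 100-fold apart in every lost and new gene shown, and their ranges overlap for 4 persisting genes. ETNPPL has 1 blastomere far above the other two.

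Genes of maternal mRNA storage and decay had 6 called higher and 6 called lower of 53 tested, 11.3% each way against 6.03% and 8.23% of all tested genes, and a median log2 fold change of -0.49, which turned to 2.21 under median-ratio scaling. BTG4, described above, and the RNA-binding protein gene IGF2BP3 led the falls. IGF2BP3 was at 1168, 652 and 607 FPKM in zygotes and 2.01, 2.25 and 34.97 FPKM in blastomeres, so that 1 sister kept more than the others (log2 fold change -5.78 ± 0.53, adjusted p = 8.09e-07). CPEB1, which binds the cytoplasmic polyadenylation element, was at 10.1, 15.8 and 14.2 FPKM and then at 0, 0.0094 and 0.0314 FPKM (adjusted p = 0.0415), and the deadenylase gene CNOT7 at 30.01, 17.4 and 15.1 FPKM and then at 0.955, 0.0724 and 3.49 FPKM (adjusted p = 0.0443). The decapping enzyme gene DCP2 and the nonsense-mediated decay kinase gene SMG1 were the other two called lower. Among the rises, PABPC1, the cytoplasmic poly(A)-binding protein, went from 1.74, 0.0424 and 0.0228 to 109, 61.3 and 172 FPKM (log2 fold change 6.33 ± 1.04, adjusted p = 0.000408). IGF2BP1 went from 0, 0.019 and 0 to 0, 88.7 and 0.503 FPKM, a rise carried by 1 blastomere (adjusted p = 1.6e-06). YBX1 and TOB2 were higher in every sister than in any zygote, while ZFP36L2 was called on the level of the third blastomere.

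The sequences below show 3′ ends of fallen and of persisting maternal transcripts, with the polyadenylation signal AATAAA and the cytoplasmic polyadenylation element TTTTAT in capitals, to set the letters that CPEB1 reads beside the levels. They were read from the Sscrofa11.1 genome at the ends of RefSeq transcripts, on the transcript strand.
IGF2BP3 (chr9:92104799-92104828, minus strand): gTTTTATttttgcctttttgAATAAAtgtg
TYMS (chr6:105642738-105642767, minus strand): gTTTTATatcttgctatAATAAAtgttctg
UHRF2 (chr1:215730212-215730241, minus strand): cttAATAAAtaTTTTATgaccagaaaaata
FOXN2 (chr3:92268780-92268809, minus strand): gtattacagAATAAActttgTTTTATaaca
FOXN2 was not called and the other 3 were called lower. Only ends that hold the signal and the element close together were printed. These sequences therefore do not show how often the element occurs in either kind. IGF2BP3 and UHRF2 still had 1 FPKM or more in every blastomere and by that level counted as persisting. TTTTAT or TTTTAAT was found, on the transcript strand, in the last 100 bases of 24.6% of 1058 lost genes with such a sequence, against 25.2% of 3319 genes present in all 3 zygotes and 22.99% of 6507 tested genes. AATAAA stood in the last 50 bases of 63.6%, 64.6% and 62.8% of them. Fewer than 80% of the persisting and new genes had a 100-base 3′ end to search, so no share is given for them.

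Cell division genes fell or were not called. The listed genes of meiotic and mitotic M phase had a median zygotic level of 11.5 FPKM, against 2.95 FPKM for all tested genes. Of 53 tested genes of meiotic and mitotic M phase, 13 (24.5%) were called lower and none higher, against 8.23% and 6.03% of all tested genes, with a median log2 fold change of -1.16 that turned to 0.41 under median-ratio scaling. FBXO43, the inhibitor of the anaphase-promoting complex that holds the egg in metaphase II, went from 46.3, 171 and 135 to 0.22, 0.417 and 0.199 FPKM (adjusted p = 0.000203). SMC1B, a meiotic cohesin subunit, went from 58.9, 47.2 and 78.9 to 0.24, 0.172 and 0.113 FPKM, and CDC25C, a phosphatase that activates CDK1, from 47.9, 37.1 and 39.98 to 0.0663, 0.0503 and 0.141 FPKM (adjusted p = 0.000309 and 0.00152). The B-type cyclin genes CCNB1 and CCNB2 were also lower, CCNB1 from 30.8, 36.4 and 32.3 to 2.91, 0.0722 and 1.27 FPKM (adjusted p = 0.00489). In contrast, CDK1 itself was at 2.64, 4.69 and 2.71 FPKM in zygotes and 26.6, 0.262 and 18.8 FPKM in blastomeres and PLK1 at 4.97, 5.85 and 2.4 and 2.81, 0.0835 and 109 FPKM, with a wide spread among sisters and no call (adjusted p = 0.305 and 0.175).

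Of 39 tested DNA replication genes, 7 (17.9%) were called lower and none higher, against 8.23% and 6.03% of all tested genes, with a median log2 fold change of -1.78, or -0.42 under median-ratio scaling. POLD3, a subunit of DNA polymerase delta, went from 19.6, 37.4 and 32.8 to 0.0717, 0.109 and 0 FPKM (adjusted p = 0.0106). TYMS, which makes thymidylate, went from 130.3, 68.5 and 99.01 to 0.0854, 6.94 and 2.91 FPKM (adjusted p = 0.0388), and it overlaps ENOSF1 on the other strand. MCM10 and ORC2, both needed to start replication, went from 25.1, 20.02 and 20.9 to 0.0579, 0.165 and 0.043 FPKM and from 10.99, 25.5 and 22.9 to 0, 0.0307 and 0.117 FPKM (adjusted p = 0.0166 and 0.0214). PCNA, ORC6 and RPA2 were the other 3 called lower. Every zygote was above every blastomere for 28 of the 39 genes (71.8%), against 45.4% of all tested genes. The list's median zygotic level was 6.66 FPKM, against 2.95 FPKM for all tested genes, and genes of like level were not compared.

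Of 14 tested genes of DNA methylation and demethylation, 2 were called lower and none higher, with 8.23% of all tested genes called lower. DNMT1, the maintenance DNA methyltransferase, was at 1511, 1412 and 1075 FPKM in zygotes and at 8.13, 31.9 and 83.4 FPKM in blastomeres (log2 fold change -4.97 ± 0.53, adjusted p = 4.14e-06). UHRF2, a DNMT1-associated ubiquitin ligase, went from 504, 731 and 653 to 1.17, 2.55 and 163 FPKM (adjusted p = 0.0042), and 1 sister held far more than the others. Without that blastomere, the third, the log2 fold change of UHRF2 was -7.77. Under median-ratio scaling UHRF2 stood at 0.23 and DNMT1 at -1.51. Only the direction of DNMT1 was the same, and neither gene was called under that scaling.

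At the levels set above 434 genes persisted and 1263 were lost, an order that turned with the scaling, while the rule changed how far apart the counts were. Under median-ratio scaling 486 persisted and 303 were lost, and by the mean FPKM of each stage 2290 and 2704. Of 417 persisting nuclear genes, 141 were within 2-fold of their zygotic level, 226 were more than 2-fold higher and 50 more than 2-fold lower. Their median level was 20.6 FPKM in zygotes and 50.01 FPKM in blastomeres, counting the 17 mitochondrial genes of the class too. Only 12 nuclear genes were at 100 FPKM or more in all 6 cells, and 127 at 10 FPKM or more. FEM1C, a substrate receptor of a cullin ubiquitin ligase, was at 138, 178 and 164 FPKM in zygotes and 135, 158 and 111 FPKM in blastomeres, so that the stages overlapped, with a log2 fold change of -0.24 and a 95% interval of -1.60 to 1.12. ZBTB10, a zinc finger transcription factor, was at 102, 123 and 137 FPKM in zygotes and 334, 261 and 120.3 FPKM in blastomeres, and FOXN2, a forkhead factor, at 143, 122 and 100.4 and 501, 188 and 197 FPKM. The zinc exporter gene SLC30A1 was at 251, 127 and 137 and 388, 654 and 196 FPKM, and ING3, a subunit of the NuA4 histone acetyltransferase, at 374, 119 and 125 and 575, 264 and 572 FPKM. None of these 5 was called. EIF3E, a translation initiation factor subunit, YWHAE, which encodes 14-3-3 epsilon, and CDR1 had log2 fold changes of 1.75 ± 0.69, 1.83 ± 0.73 and 1.86 ± 0.76 (SE) and were not called (adjusted p = 0.0982, 0.101 and 0.109). For CDR1, reads from its other strand, known to give a circular RNA, cannot be told apart. Of the 9 persisting genes described here ARMC1 was the only one called, at 516, 554 and 416 FPKM in zygotes and 2169, 1154 and 900.4 FPKM in blastomeres (log2 fold change 1.51 ± 0.49, adjusted p = 0.0445). Its call was lost under 9 of 16 alternative settings. A steady level was shown for few genes. The 95% interval of the log2 fold change lay within -2 to 2 for 18 of the 417 persisting nuclear genes. Among all tested genes it lay within -2 to 2 for 742 and within -1 to 1 for 29. Under median-ratio scaling all 9 were above 0, with FEM1C the lowest at 3.10 on the log2 scale, so that its direction turned.

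New transcripts were fewer than lost ones, 51 against 1263. CRABP2, which carries retinoic acid to its nuclear receptors, was at 0, 0.0685 and 0 FPKM in zygotes and 29.1, 41.3 and 390.2 FPKM in blastomeres (log2 fold change 7.24 ± 0.78, adjusted p = 4.14e-06). SLC34A2, a sodium-phosphate cotransporter, went from 0.0279, 0.0231 and 0 to 319, 92.1 and 9.52 FPKM (adjusted p = 0.0027). FAM76A went from 0.0298, 0.0123 and 0.0221 to 294, 39.7 and 58.6 FPKM (adjusted p = 0.00119). Over these 3 genes the highest zygote was at 0.0685 FPKM (CRABP2) and the lowest blastomere at 9.52 FPKM (SLC34A2). SULT1E1, the estrogen sulfotransferase, was at 0.0323, 0.00892 and 0.0384 and then 56.9, 68.5 and 78.7 FPKM, with the closest agreement among sisters of the 10 highest new genes. TMEM65, a protein of the inner mitochondrial membrane, was at 0, 0.0579 and 0.089 and then 54.1, 122 and 94.3 FPKM. ASNA1, the ATPase that delivers tail-anchored proteins to the endoplasmic reticulum, was at 0, 0.0244 and 0.00656 and then 17.9, 73 and 65.8 FPKM (log2 fold change 5.72 ± 0.44, adjusted p = 2.96e-07). SDS, a serine dehydratase that overlaps PLBD2 on the other strand, was at 0, 0.0652 and 0.0421 and then 59.5, 34.7 and 111 FPKM with an adjusted p of 0.0503. RSL24D1, a factor of 60S ribosome assembly, was at 90.6, 73.9 and 15.3 FPKM and the ribosomal protein gene RPL9 at 95.02, 55.99 and 14.99 FPKM in blastomeres, and the highest zygote of either was at 0.0565 FPKM (RSL24D1). ETNPPL, an ethanolamine-phosphate lyase, had no read in the zygotes, and its 296, 4.14 and 1.21 FPKM in blastomeres rested almost wholly on 1 of them. The highest new row of all, ENSSSCG00000026910, is a row of 53 bases inside the RefSeq gene PURB, with 1.88, 1.43 and 994 FPKM in blastomeres, and it was not called (adjusted p = 0.0605).

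None of the largest rises was of a gene classed as new. RACK1, a scaffold protein of the 40S ribosomal subunit, was at 0.0696, 0.461 and 0.109 FPKM in zygotes and 1519, 781 and 421 FPKM in blastomeres, a log2 fold change of 9.56 ± 1.86 (SE, adjusted p = 0.00184). CDV3 went from 33.4, 9.82 and 35.6 to 19437, 9232 and 10509 FPKM (log2 fold change 9.10 ± 1.496, adjusted p = 0.000402). TFRC, the transferrin receptor that brings iron into cells, went from 3.33, 0.556 and 1.01 to 1870, 119.5 and 119 FPKM (adjusted p = 0.00039). All blastomeres of these 3 genes were above all zygotes, but TFRC was far higher in the first sister than in the others. A snoRNA row, SNORD96, lies within RACK1. A row for the spliceosomal RNA U5 was at 0 in all zygotes and at 1404, 379 and 0 FPKM in blastomeres (adjusted p = 0.000176). Copies of U5 are near-identical and this row of 88 bases overlaps LRRC8A on the other strand, so its source is uncertain. The gene with the largest rise, ENSSSCG00000034113 (chr9:25500470-25503075), overlaps a RefSeq gene described as elongation factor 1-alpha, oocyte form-like. It was at 0.088, 1.51 and 2.35 FPKM in zygotes and 3023, 3764 and 3492 FPKM in blastomeres, almost the same in the 3 sisters (log2 fold change 10.68 ± 1.34, adjusted p = 2.58e-05). Elongation factor 1-alpha has near-identical copies, so how the reads were shared among them is uncertain.

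Ribosomal protein genes had the largest share of called members of all the lists. Of 60 tested genes of cytosolic ribosomal proteins, 46 were called higher and none lower, against 6.03% and 8.23% of all tested genes. Their median log2 fold change was 3.85, which was 4.62 above the median gene, and it was 6.05 under median-ratio scaling. Their summed FPKM was 95.1 to 109 in the zygotes and 2792 to 5364 in the blastomeres. RPS3A went from 0.209, 0.173 and 0.212 to 998, 400.3 and 331 FPKM, RPS16 from 0.789, 0 and 0.128 to 623, 727 and 238 FPKM, and RPS9 from 2.07, 0.0607 and 0.0652 to 59.3, 356 and 159 FPKM (log2 fold change 8.91 ± 1.52, 8.71 ± 1.73 and 6.99 ± 1.83, adjusted p = 0.000566, 0.00219 and 0.0154). Each of these 3 genes was higher in every blastomere than in any zygote, as were 48 of the 60, against 5.30% of all tested genes. Not every member moved, as RPLP0 was at 2.5, 1.84 and 19.3 FPKM in zygotes and 8, 9.32 and 12.4 FPKM in blastomeres and was not called (adjusted p = 0.737). The one member below 0, at -1.13, was RPL10L, a retrocopy expressed in the germline. Ribosomal protein genes have many processed copies in mammalian genomes, so reads may have been split or shared among them.

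Fewer of the genes that assemble the ribosome were called. Of 69 tested genes of the nucleolus and ribosome assembly, 9 (13.0%) were called higher and 2 (2.90%) lower, against 6.03% and 8.23% of all tested genes, with a median log2 fold change of 0.89. MPHOSPH10, of the small-subunit processome, went from 1.7, 3.57 and 1.23 to 170.5, 158 and 106 FPKM (adjusted p = 0.0452). EMG1, an 18S ribosomal RNA methyltransferase, went from 0, 0.0344 and 0.0555 to 62.8, 18.01 and 9.8 FPKM (adjusted p = 0.0307). MPHOSPH10 lies opposite MCEE and EMG1 opposite LPCAT3. RRP12 went from 0, 0.137 and 0 to 48.7, 36.2 and 0.00908 FPKM, with 1 sister near 0 (adjusted p = 2.26e-05). RRP15, a factor of the large subunit, went the other way from 53.97, 12.2 and 17.7 to 0.107, 0.192 and 0.00653 FPKM (adjusted p = 0.00631), as did the RNA acetyltransferase gene NAT10. The abundant nucleolar protein genes NPM1 and NCL were at 41.9, 40.7 and 50.4 and 22.6, 64.8 and 33.5 FPKM in zygotes and at 28.4, 84.3 and 106 and 63.8, 98.1 and 6.79 FPKM in blastomeres, with overlapping ranges and no call (adjusted p = 0.573 and 0.736).

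Among 50 tested translation factors, 7 (14%) were called higher and 1 lower, against 6.03% and 8.23% of all tested genes, with a median of 1.70. EEF1B2, the exchange factor of elongation factor 1-alpha, went from 2.87, 0.27 and 1.03 to 1338, 278 and 10.5 FPKM (log2 fold change 7.98 ± 1.23, adjusted p = 0.000214). EEF1G, of the same complex, went from 0.447, 0.185 and 0 to 50.5, 100 and 5.23 FPKM and EIF3H, of initiation factor 3, from 58.6, 41.1 and 8.34 to 2526, 610.3 and 298 FPKM (adjusted p = 4.27e-05 and 0.00606). EIF4E3, a cap-binding protein, was the one called lower, from 52.8, 74.7 and 114 to 0.192, 0.145 and 0.0679 FPKM (adjusted p = 0.00489). The initiation factors thus did not all move one way.

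Promoter sequences of 3 of the risen genes are shown because of a heptamer they share, CCGGAAG or its reverse complement CTTCCGG, the core that ETS-family factors are known to bind. The 150 bases before the RefSeq transcript start are printed 5′ to 3′ on the gene's strand, from Sscrofa11.1, with that heptamer in capitals.
RSL24D1 (chr1:116612185-116612334, plus strand): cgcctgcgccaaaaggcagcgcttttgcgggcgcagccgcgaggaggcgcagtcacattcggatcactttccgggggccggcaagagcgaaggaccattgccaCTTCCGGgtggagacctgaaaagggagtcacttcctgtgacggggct
EEF1B2 (chr15:109451751-109451900, plus strand): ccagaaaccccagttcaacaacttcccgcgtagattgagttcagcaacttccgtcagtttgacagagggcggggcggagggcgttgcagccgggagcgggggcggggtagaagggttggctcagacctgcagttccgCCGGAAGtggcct
PSMB7 (chr1:265235390-265235539, minus strand): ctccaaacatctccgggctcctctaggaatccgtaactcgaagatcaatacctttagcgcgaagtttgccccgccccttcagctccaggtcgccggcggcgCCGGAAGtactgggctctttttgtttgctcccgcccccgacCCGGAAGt
Searched on both strands in 300 bases (250 before and 50 from the start), the heptamer stood in 23 of 60 promoters of tested ribosomal protein genes (38.3%), in 34.1% of 41 promoters of new genes, in 21.1% of 365 of persisting genes and in 13.8% of 1114 of lost genes. It stood in 16.8% of the 6988 promoters of tested genes. These sets share promoters, as 12 of the ribosomal protein genes were also new and 7 persisting. The GC box GGGCGG, whose outer bases can coincide with those of the heptamer, stood in 61.7%, 75.6%, 70.7%, 59.2% and 63.1% of the same promoters. A letter match is not a bound site, the annotated starts were not checked against these data, and no share is given for all genes called higher, because fewer than 80% of them had a RefSeq promoter.

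**Figure D3:**
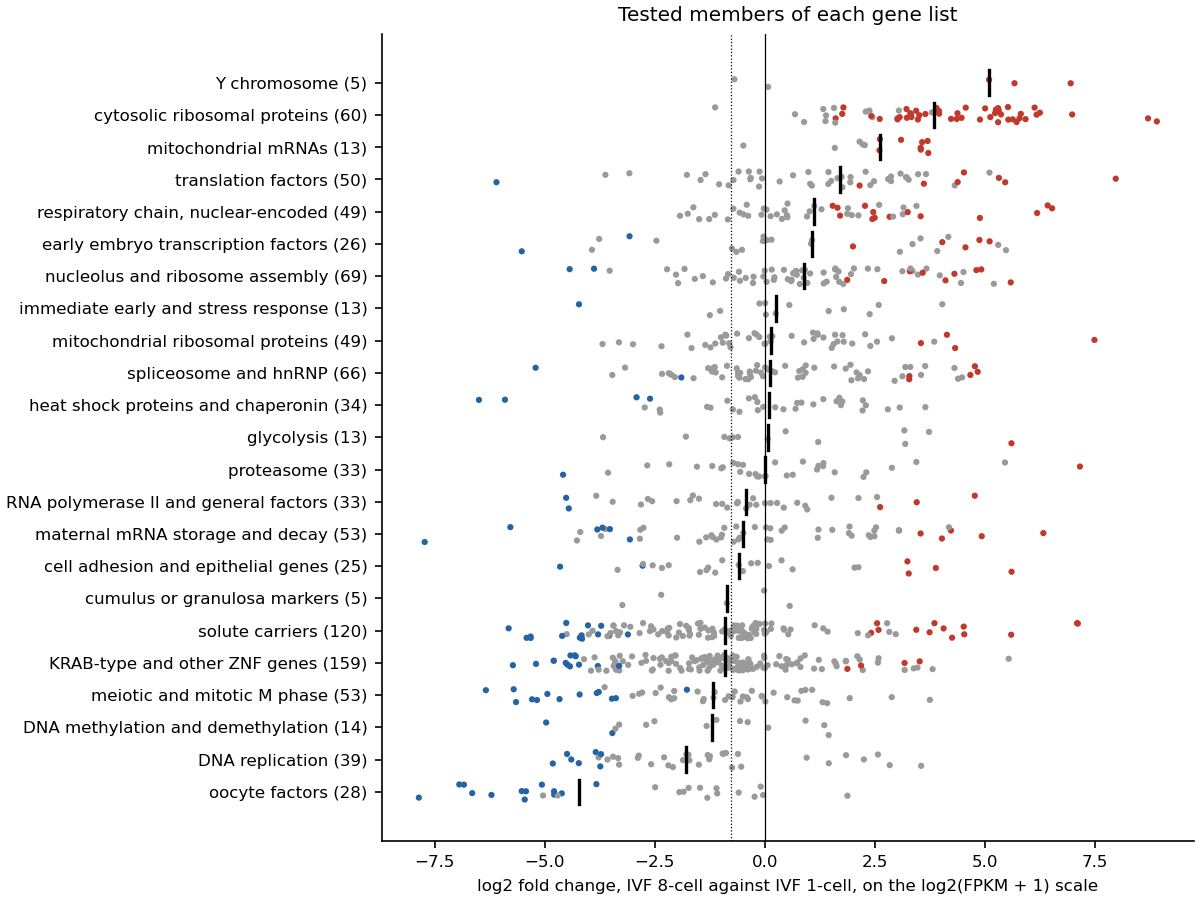
Log2 fold change of each tested member of the gene lists, IVF 8-cell against IVF 1-cell, with members called higher in red, called lower in blue and not called in grey, a bar at each list's median and the number tested in brackets. The dotted line marks the median of all 8116 tested genes, -0.77. Ribosomal proteins lie almost wholly to the right and oocyte factors almost wholly to the left.

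Genes of energy metabolism from both genomes were among the rises. Of the 13 mRNAs that mitochondrial DNA encodes, 8 (61.5%) were called higher and none lower, against 6.03% and 8.23% of all tested genes, with a median log2 fold change of 2.62. ND4, of complex I, went from 119, 329 and 184 to 1269, 3844 and 2558 FPKM (adjusted p = 0.00131). ATP6, of ATP synthase, went from 831, 5998 and 4810.1 to 16463, 51493 and 44711 FPKM and COX2, of cytochrome oxidase, from 236, 968 and 896 to 2478, 9346 and 9325 FPKM (adjusted p = 0.00565 and 0.00415). In 11 of the 13 every blastomere was above every zygote, against 5.30% of all tested genes, and ATP8, which overlaps ATP6, was the one below 0. Mitochondrial and nuclear transcripts share 1 total in FPKM, so a rise of the first and a fall of the second cannot be told apart here. With nuclear genes rescaled to the same total, 375 were called higher and 619 lower, and the log2 fold change was 9.12 in place of 9.56 for RACK1 and -0.53 in place of -0.24 for FEM1C.

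Of 49 tested nuclear genes of the respiratory chain, 14 (28.6%) were called higher and none lower, against 6.03% and 8.23% of all tested genes, with a median of 1.13. Every blastomere was above every zygote in 7 of the 49 (14.3%), against 5.30% of all tested genes. NDUFS1, the largest complex I subunit, went from 0.853, 0.0793 and 0.729 to 366, 46.6 and 3.72 FPKM (adjusted p = 0.000441). It lies head to head with EEF1B2, their gene bounds overlap, and their rises cannot be fully told apart without strand. COX5A went from 0.0283, 0.047 and 0.656 to 217, 93.5 and 0.385 FPKM, with 1 blastomere at the zygotic level, and COX7A2 from 0, 0.309 and 0.133 to 38.1, 85.2 and 124 FPKM (adjusted p = 0.000113 and 0.00826). NDUFA8 was at 10.98, 121 and 0.027 FPKM in the sisters (adjusted p = 0.00636). Of 49 tested mitochondrial ribosomal proteins, 4 were called higher and none lower, near the background of 6.03%, and each rise rested on 1 or 2 blastomeres. MRPL48 was at 98.4, 0.0265 and 444 FPKM, MRPS11 at 0.0196, 71.9 and 0.416 FPKM, MRPL45 at 0.122, 0 and 79.4 FPKM and MRPL51 at 0.0854, 34.1 and 1.34 FPKM in the sisters. Without the highest blastomere of each, MRPS11 stood at -0.038 and MRPL45 at -0.56 on the log2 scale. Of 13 tested glycolysis genes only PGAM1 was called (7.69%, near the background), and its 0.0458, 0.782 and 142 FPKM in blastomeres came almost wholly from the third. LDHB, a lactate dehydrogenase subunit, was at 16.3, 11.3 and 17.1 and then 312, 39.7 and 76.1 FPKM, above the zygotes in every sister but not called (adjusted p = 0.137).

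Genes of transcription and RNA processing had shares of calls near or under those of all tested genes, so that the counts set neither list apart. Of 33 tested genes of RNA polymerase II and its general factors, 3 (9.09%) were called higher and 2 (6.06%) lower, against 6.03% and 8.23%. POLR2B, the second largest polymerase subunit, went from 0.11, 0.803 and 0.426 to 73.5, 24.3 and 15.7 FPKM (adjusted p = 0.0264), with IGFBP7 and NOA1 among the genes on its other strand. TBPL1, a TBP-related factor of germ cells, went from 185, 197 and 255 to 0.386, 25.2 and 0.369 FPKM, and GTF2E2, of TFIIE, from 20.01, 36.2 and 29.4 to 0.614, 0.103 and 0.058 FPKM (adjusted p = 0.00261 and 0.042). TAF11 was called on the level of the third sister, from 0.268, 1.37 and 3.17 to 0, 2.33 and 71.1 FPKM, and stood at -0.10 on the log2 scale without it. Of 66 tested spliceosome and hnRNP genes, 5 (7.58%) were called higher and 2 (3.03%) lower. The splicing regulators SRSF2 and SRSF6 went from 2.15, 7.54 and 3.21 to 245, 103 and 46.3 FPKM and from 0.0365, 7.13 and 5.83 to 259.8, 3.98 and 65.2 FPKM, and HNRNPA2B1 from 2.04, 5.74 and 9.01 to 314, 40.6 and 94.02 FPKM (adjusted p = 0.0307, 0.0344 and 0.00385). SRSF6 overlapped between stages in 1 sister. PRPF18, a second-step splicing factor, went from 51.2, 80.3 and 54.5 down to 0.685, 0.0842 and 1.24 FPKM (adjusted p = 0.00487).

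Of 26 tested transcription factors known from early embryos, 5 (19.2%) were called higher and 2 (7.69%) lower, against 6.03% and 8.23% of all tested genes, with a median of 1.06. OTX2, above, and the Hippo pathway coactivator gene YAP1 were lower. GATA6, a factor of primitive endoderm, was at 0, 0.0096 and 0 FPKM in zygotes and 30.5, 1.59 and 53.5 FPKM in blastomeres (adjusted p = 0.00443). GATA3, a factor of trophectoderm, was at 0, 0.0331 and 0.0445 and then 0, 0.00932 and 103 FPKM, so that its call rested on the third sister (adjusted p = 0.00536), without which its log2 fold change was -0.030. NR5A2, a nuclear receptor active in early embryos, was at 1.36, 66.4 and 0.552 FPKM in blastomeres, again mostly in 1 sister (adjusted p = 0.00484). KLF4 and KLF17 were at 1.09, 49.6 and 189 and 2.15, 116 and 0 FPKM and were not called (adjusted p = 0.0613 and 0.0652). NANOG was at 32.6, 0.124 and 0.0464 FPKM, high in the first sister only and not called (adjusted p = 0.177), and SOX2 was at 0 in all 6 cells. The sisters that were highest for GATA3, NR5A2 and NANOG were 3 different blastomeres.

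Zinc finger and transporter genes, the largest lists, were near the median gene. Of 159 tested ZNF genes, 4 (2.52%) were called higher and 12 (7.55%) lower, against 6.03% and 8.23% of all tested genes, with a median of -0.91. ZNF648 went from 64.8, 41.6 and 72.1 to 0.035, 0.146 and 0.164 FPKM and ZNF667 from 28.2, 51.99 and 67.8 to 0.0252, 0.0861 and 0.762 FPKM (adjusted p = 0.00017 and 0.00602), and ZNF451 and ZNF599 fell by 4.80 and 4.52 on the log2 scale. Of 120 tested solute carriers, 13 (10.8%) were called higher and 14 (11.7%) lower. SLC31A1, the copper importer, which lies opposite CDC26, went from 1.78, 0.641 and 1.22 to 482, 171 and 234 FPKM and SLC16A6, of the monocarboxylate carrier family, from 0, 0.0314 and 0.177 to 0.932, 65.5 and 86.03 FPKM (adjusted p = 0.000168 and 0.014). SLC2A12, a glucose transporter, fell from 69.2, 80.7 and 107 to 0.4, 0.875 and 0.248 FPKM (adjusted p = 0.000447), and it overlaps TBPL1, which fell too, on the other strand. The proteasome list had 1 call each way among 33 tested, 3.03% and under the background. PSMB7, a subunit of the catalytic core, rose from 0.189, 1.25 and 0.607 to 331, 132 and 234 FPKM and PSMD5, a base assembly chaperone, fell from 10.6, 53.5 and 22.8 to 0, 0.0609 and 0.0273 FPKM (adjusted p = 0.0148 and 0.0342).

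Heat shock proteins had 4 of 34 tested genes called lower (11.8%) and none higher, near the 8.23% of all tested genes called lower. HSPA4L went from 124, 96.7 and 109 to 0.263, 0.242 and 0.166 FPKM and the co-chaperone genes DNAJA2 and DNAJA1 from 338, 149 and 186 to 6.83, 0.539 and 0.244 FPKM and from 148, 196 and 178 to 13.4, 0.352 and 52.5 FPKM (adjusted p = 0.000182, 0.000441 and 0.00415). BAG4, another co-chaperone gene, went from 26.6, 18.9 and 18.4 to 5.87, 1.94 and 0.034 FPKM (adjusted p = 0.0416). All 4 overlap a gene on the other strand. DNAJA1 and BAG4 stood above 0 under median-ratio scaling, at 0.77 and 0.52. Of 13 tested immediate early and stress genes only 1 was called (7.69%). NFE2L2, the antioxidant response factor, fell from 16.5, 18.05 and 19.99 to 0.0408, 0.0155 and 0.0173 FPKM (adjusted p = 0.0256), while ATF4 and DUSP1 were at 36.9, 19.8 and 30.97 and 20.7, 0.0179 and 147 FPKM in blastomeres and were not called (adjusted p = 0.217 and 0.062). Of 25 tested adhesion and epithelial genes, 4 (16%) were called higher and 2 (8%) lower, against 6.03% and 8.23%. In 1 gene (4%) every blastomere was above every zygote, against 5.30% of all tested genes. The tight junction scaffold gene TJP1 fell from 23.4, 27.4 and 24.8 to 0.0752, 0.0333 and 0.016 FPKM (adjusted p = 0.0106). The claudin gene CLDN6 was at 0.134, 143 and 0 FPKM in blastomeres, high in 1 sister (adjusted p = 0.00489), and the integrin gene ITGB1 went from 5.46, 0.0418 and 0.786 to 61.1, 0.705 and 1.6 FPKM on the level of the first sister (adjusted p = 0.0231), without which its log2 fold change was -0.091. Cumulus marker STAR was at 10.6, 12.2 and 4.86 FPKM in zygotes and 0.0664, 0.0063 and 0 FPKM in blastomeres. VCAN was at 3.09, 6.39 and 5.77 and then 0, 0.315 and 0.145 FPKM, and neither was called (adjusted p = 0.0587 and 0.145). Of the 5 tested cumulus or granulosa markers none was called and 1 was above 0. Their median log2 fold change was -0.86, against -0.77 for all tested genes. What part carried-over somatic RNA had in the falls was not tested.

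The Y chromosome can come only from sperm. The table held 25 Y-linked rows, of which 5 were tested and 3 were called higher, against 6.03% of all tested genes. The paper sexed cells by their summed FPKM of Y-linked genes, and classed these blastomeres as male and the zygotes as female. That rule reads expression, so it cannot give the sex of a zygote with a silent Y chromosome. The blastomeres and zygotes came from different embryos, so a rise between stages cannot be told apart from a difference in embryo sex. ENSSSCG00000034141, described by RefSeq as similar to RBMX, was at 0, 0 and 0 FPKM in zygotes and 126, 243 and 0.036 FPKM in blastomeres (adjusted p = 0.00137). ENSSSCG00000038249, similar to gamma-taxilin, was at 114, 0 and 37.05 FPKM, and ENSSSCG00000012178, described as eukaryotic translation initiation factor 2 subunit 3, was at 82.7, 1.33 and 16.01 FPKM (adjusted p = 5.59e-06 and 5.97e-07). Relatives of these genes lie on the X chromosome, so reads may be shared between copies. The sisters differed widely, with the second blastomere at 0 for one gene and highest for another.

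**Figure D4:**
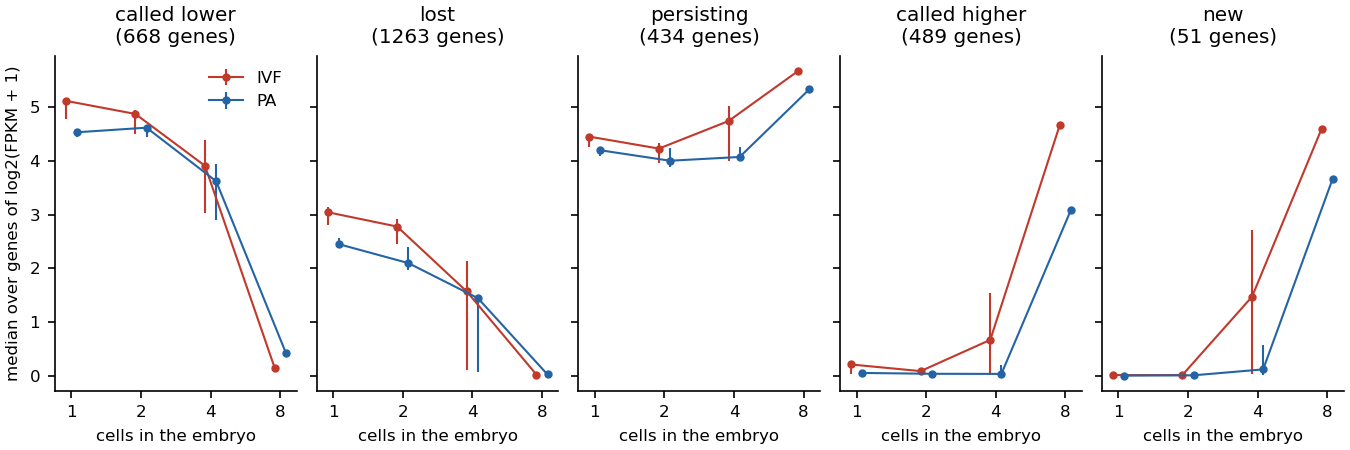
Median over the genes of each set of log2(FPKM + 1), by the number of cells in the embryo, for IVF (red) and PA (blue). Points are medians over embryos and bars the lowest and highest embryo, with 3 embryos per stage and 1 at the 8-cell stage, which has no bar. In IVF the sets chosen by the endpoints lie near their 1-cell level at the 2-cell stage and part from it at the 4-cell and 8-cell stages.

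The 2-cell (27 h) and 4-cell (48 h) stages placed most of the net change late. At the 2-cell stage the median gene called higher had moved 0.072% of its log2 difference between the endpoints and the median gene called lower 5.52%. At the 4-cell stage these shares were 17.5% and 32.4%, and 90 genes called higher (18.4%) and 174 called lower (26.0%) were past 50%. The endpoints chose these genes, so the shares are a description with no test. The level of the lost genes went from a median of 7.24 FPKM at the 1-cell stage to 5.85 FPKM at the 2-cell stage and 1.96 FPKM at the 4-cell stage (lowest and highest of 3 embryos 0.0767 and 3.38 FPKM). Ribosomal protein genes were at a median of 0.084, 0.135 and 3.49 FPKM at these stages, and at 22.4 FPKM in the 8-cell embryo. Among single genes the timing differed. At the 4-cell stage MAEL was already at 0.233 FPKM, while OTX2 was at 39.8, WEE2 at 232, IGF2BP3 at 583 and CDC25C at 49.6 FPKM on average over 3 embryos. TMEM65 was at a mean of 93.6 FPKM by then (lowest and highest embryo 3.53 and 262 FPKM) and SDS at 59.1 FPKM (0.343 and 105 FPKM). CDV3 was at a mean of 3763 FPKM and ASNA1 at 0.287 FPKM (0.0223 and 0.786 FPKM).

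Sister blastomeres differed widely, in the genes called higher and in tested genes at large. In 197 (40.3%) of the 489 genes called higher, 1 blastomere held more than 90% of the summed FPKM of the 3, and the median share of the highest sister was 79.3%. Of all 3055 tested genes with a blastomere mean of 1 FPKM or more, which include those 489, 1655 (54.2%) were past 90%, with a median of 93.1%. Uneven sisters were thus no mark of the genes called higher. The blastomere numbered 1 was the highest in 156, the one numbered 2 in 197 and the one numbered 3 in 136 of the 489. The sisters lay within 4-fold in 79 (16.2%) of the 489 and in 256 (8.38%) of the 3055. The classes of new and persisting genes need all 3 sisters, but the calls use the mean of the 3, so those classes were not set beside the genes called higher. How much of this spread came from amplification of single cells and how much from the cells was not tested.

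**Figure D5:**
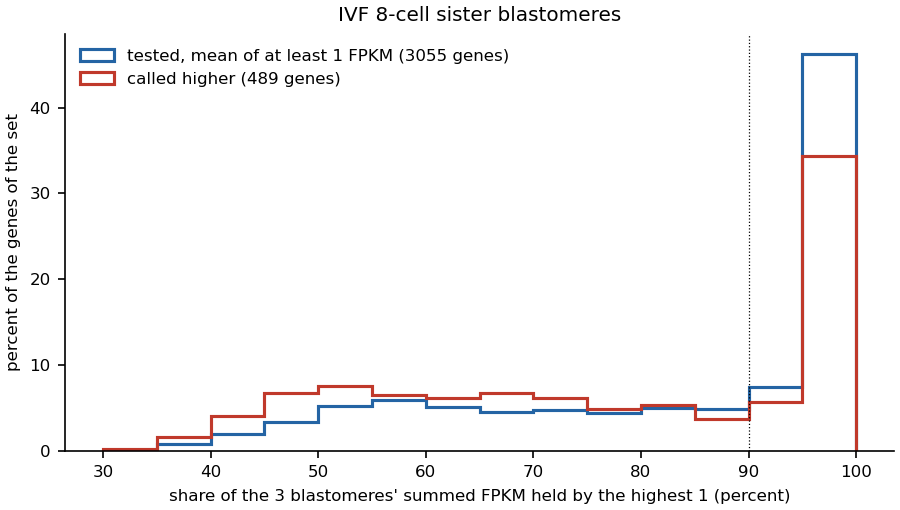
Percent of genes by the share of the 3 sister blastomeres' summed FPKM that the highest blastomere holds, in bins of 5%, for 489 genes called higher (red) and all 3055 tested genes with a blastomere mean of 1 FPKM or more (blue). Equal sisters would be at the left end. Both sets pile up above the dotted line at 90%, with 40.3% of the genes called higher and 54.2% of the larger set.

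In PA embryos, where 615 genes (7.58%) were called higher and 504 (6.21%) lower between the same stages, most of the genes called in IVF moved the same way. Of the 489 genes called higher in IVF, 373 (76.3%) were above 0 in PA, against 30.4% of all tested genes, and 233 (47.6%) were called higher there. Of the 668 called lower, 592 (88.6%) were below 0 in PA, against 67.2% of all tested genes, and 312 (46.7%) were called lower. Among the 489, 1 gene was called lower in PA, and none of the 668 was called higher. Both net changes came from 1 fit with a spread per gene shared by all 20 embryos. The shares called in both are therefore not independent. The difference between the 2 net changes was called for 123 genes (1.52%), 42 with a higher value in IVF and 81 with a lower one, with a median SE of 1.63 on the log2 scale, so that small differences were not detectable. The ribosomal protein list had 41 of 60 called higher in PA, with no difference called. The oocyte factors had 13 of 28 called lower in PA, with 1 difference called. WEE2 changed by -4.78 and BTG4 by -5.64 on the log2 scale in PA, both called, and the difference from IVF was not called (adjusted p = 0.124 and 0.306). ENSSSCG00000034113 changed by 10.75 in PA and 10.68 in IVF. By contrast, ASNA1 changed by 0.02 in PA and 5.72 in IVF (difference 5.70 ± 0.63, SE, adjusted p = 6.31e-05). Its mean was 0.0149 FPKM in the PA 8-cell embryo and 52.2 FPKM in the IVF one. The Y-linked genes ENSSSCG00000012178 and ENSSSCG00000038249 were at 0 in all PA 1-cell and 8-cell cells, and their differences were called too (adjusted p = 0.000162 and 0.00246). A pair of PA libraries of the 2-cell stage nearly repeated a pair of the 4-cell stage (Pearson's r of 0.9988 and 0.9985 across genes, against at most 0.908 for any other pair). None is of the 1-cell or 8-cell stage. They enter the estimate of the spread, the filter on low genes, the genes used for median-ratio scaling and the plotted PA medians of the 2-cell and 4-cell stages, and without the 2 of the 4-cell stage 452 genes were called higher and 561 lower in IVF.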

How the data were processed

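Single-cell RNA-seq was made from 42 pig cells of 20 embryos in 8 groups of method (IVF or PA) and stage, and 6 cells carry the comparison. According to the study's methods, transcripts were amplified from single cells with or without a poly(A) tail and sequenced on a HiSeq X-Ten, reads were mapped to Sscrofa11.1 with Hisat2, assembled with StringTie and counted with HTSeq, and the authors calculated FPKM, which was deposited as 1 table of 15351 genes with 1 column per cell. The sample labels describe another, bulk-type extraction. Tool versions, annotation release and use of strand are not given in the sources used here. Amplification from 1 cell without molecular identifiers can enlarge differences between cells, and FPKM takes no account of the RNA content of a cell.

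Reads per gene were recovered from the FPKM steps for 12828 of 14692 expressed genes (87.3%, within 0.002 reads, or 0.05 reads for abundant genes). They were used for depth, for the reads of lost genes and for exonic lengths, but not in the fit. Blastomeres of an embryo were averaged. Genes at 1 FPKM or more in at least 3 cells (8116) entered a limma fit (version 3.58.1, R 4.3.3, trended variance) on log2(embryo mean FPKM + 1), fitting all 20 embryos in 8 groups, with Benjamini-Hochberg adjustment over all tested genes and 95% intervals. The study's embryo numbers do not link stages. The pseudocount of 1 understates changes of low genes. The fit and the class counts were tested on simulated data.

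The comparison, the gene lists and the tests were chosen with earlier results of these data known. Named genes were the 10 highest lost and new genes, the 10 persisting genes at 100 FPKM or more with the smallest change, the 6 largest changes each way, and up to 4 called members per list (2 abundant members where fewer were called), with genes lacking a symbol only where they led a class. Further list members were named after their values were seen, and some genes that the rule chose are not reported here. Symbols came from the table or, for 839 genes, from a reference table, and 1983 genes had none. Promoters and 3′ ends were read from the RefSeq annotation of Sscrofa11.1, matched by symbol for 12296 of 13017 protein-coding genes. Pseudocounts, filters, scalings, sets of embryos and single libraries left out were tried as alternatives. Python 3.11.15 with pysam 0.24.0 and matplotlib 3.10.9 was used.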

Additional observations from a re-analysis of the deposited data

Results flagged for a closer look

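The net change differed between IVF and PA embryos, by the limma test of the difference itself, for 5 of the genes named above. All comparisons rest on 1 8-cell embryo per method. ASNA1 differed by 5.70 ± 0.626 on the log2 scale (SE, adjusted p = 6.31e-05), with a change of 5.72 in IVF and 0.02 in PA. RRP12 differed by 4.82 (adjusted p = 0.0052), with 4.81 in IVF and a level near 0 in PA, and 1 of the IVF sisters was near 0 too. ESCO2 differed by -4.71 (adjusted p = 0.011), having fallen by 7.49 in IVF and by 2.79 in PA. The Y-linked genes ENSSSCG00000038249 and ENSSSCG00000012178 differed by 5.68 and 5.10 (adjusted p = 0.00246 and 0.000162), as PA embryos, which lack a sperm genome, were at 0. The paper classed the IVF blastomeres as male, so these Y-linked differences also rest on the sex of the embryo they came from.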

How the results depend on the processing

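No paired analysis was possible because the 8-cell stage holds 1 embryo and the embryo numbers do not link stages. Of 122 named genes tested, 105 were called, 97 of these kept their direction under every alternative and 51 kept their call. The count called higher was 311 with a pseudocount of 0.1 and 1492 with median-ratio scaling. The count called lower was 443 with a pseudocount of 5, 121 with median-ratio scaling, 1350 with the mean of log2 values over blastomeres and 1147 in a fit of the IVF 1-cell and 8-cell embryos alone. Leaving out 1 library gave 355 to 513 higher and 402 to 821 lower. The difference between IVF and PA was called for 69 and 370 genes with a pseudocount of 0.1 and 5, 654 without a filter, 32 at 5 FPKM or more, 75 with nuclear genes rescaled, 884 with median-ratio scaling, 40 with the mean of log2 values, and 76 to 197 with 1 library left out. Lost, persisting and new genes numbered 524, 224 and 24 when presence meant 5 FPKM, and 2704, 2290 and 529 by mean FPKM. Counting under 1 FPKM as absent gave 1903 lost and 110 new genes, and median-ratio scaling 303 lost, 486 persisting and 102 new genes, so that persisting genes outnumbered lost ones there. With 1 library left out, 441 to 658 genes persisted, 57 to 91 were new and 1377 to 1784 were lost. Under median-ratio scaling the direction turned for FEM1C (3.10), UHRF2 (0.23), DNAJA1 (0.77) and BAG4 (0.52). With 1 library left out the log2 fold change ran from -0.030 to 5.68 for GATA3, -0.091 to 4.02 for ITGB1, -0.038 to 4.89 for MRPS11, -0.56 to 4.71 for MRPL45 and -0.10 to 4.02 for TAF11. Among other genes with 1 dominant blastomere the lowest value over the alternatives was 0.094 (CLDN6), 0.31 (IGF2BP1), 0.50 (PGAM1), 0.64 (MRPL51) and 0.96 (NR5A2). The cause of these shifts was not tested. A blastomere with 5637689 reads on genes is the shallowest of the 6, and low levels there are the least certain.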

Other observations

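Genes on the X chromosome made up 3.07% of those called higher, 3.89% of those called lower and 3.52% of all tested. The median exonic length was 3434.5 bases for genes called higher and 4572 bases for genes called lower, against 4186 bases for all tested genes, and 11 of the genes called higher were mitochondrial. The median annotated 3′UTR of genes called lower was 1485.5 bases, against 1178.5 bases for all tested genes with a RefSeq match. All 668 genes called lower were among the 3931 genes present in all 3 zygotes. The medians of those 3931 genes were 4560 exonic bases and, with a RefSeq match, a 3′UTR of 1373 bases.

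Promoters of 27 tested oocyte factors held the GC box GGGCGG in 25.9%, against 63.1% of tested promoters, and the heptamer CCGGAAG in 3.70%, against 16.8%.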
